A study of Mus musculus with 12 samples.

Results

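The 9 genes described here are *Stat2*, *Stat3*, *Stat4*, *Stat5a* and *Stat6*, and *Socs1*, *Socs2*, *Socs3* and *Cish*. They were chosen by symbol as members of the STAT family of transcription factors and the SOCS family of inhibitors, and are 9 of the 53801 genes in the count and TPM tables. RNA was sequenced from the whole hearts of adult C57BL/6N mice after sham surgery (sham), 1 day after acute myocardial infarction (day 1 AMI), and 7 days after it (day 7 AMI), with 4 hearts and 4 libraries in each group. AMI was produced by tying off the left anterior descending (LAD) coronary artery. The sham group had sham surgery, and the day on which its hearts were collected is not given in the sources used here. The mice carried no engineered allele and received no drug beyond the isoflurane anesthesia of the operation.

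STAT proteins wait in the cytoplasm until a cytokine receptor and its Janus kinase (JAK) phosphorylate them, after which they pair, enter the nucleus and bind DNA. STAT3 answers cytokines of the IL-6 family through the shared receptor gp130, STAT2 answers interferons together with IRF9, STAT4 answers IL-12, STAT5 answers growth hormone, prolactin and many blood cell cytokines, and STAT6 answers IL-4 and IL-13. The SOCS proteins and CIS, the product of *Cish*, are made in response to STATs and shut the same receptors off. All of these proteins are regulated by phosphorylation or turnover, which RNA levels do not show.

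The letters that STAT dimers and the interferon-activated complex of STAT2 and IRF9 are known to bind were looked up in the RefSeq promoter windows, which run from 250 bases before to 50 bases after a start in GRCm38.p6. A window was at hand for 8 of the 9 genes, 10 windows in all. The GAS letters, TTCNNNGAA, read the same on both strands, and 8.30% of all 32851 windows hold them. The ISRE letters are GAAA, any 2 bases and GAAA again, were sought on both strands, and are held by 3.44% of windows. The windows of *Cish*, *Socs3*, *Socs1* and *Stat2* are shown because each holds a match, printed in capitals, and because *Socs3* and *Cish* are textbook examples of inhibitors that a STAT switches on. A match is a description of the letters and not a measured binding site.
*Cish* (chr9:107296409-107296708, plus strand): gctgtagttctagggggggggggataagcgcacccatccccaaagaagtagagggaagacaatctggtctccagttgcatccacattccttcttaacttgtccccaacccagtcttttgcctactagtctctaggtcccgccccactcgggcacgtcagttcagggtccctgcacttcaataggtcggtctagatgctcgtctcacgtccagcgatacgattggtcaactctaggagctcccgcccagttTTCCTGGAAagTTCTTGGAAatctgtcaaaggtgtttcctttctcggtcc
*Socs3* (chr11:117969317-117969616, minus strand): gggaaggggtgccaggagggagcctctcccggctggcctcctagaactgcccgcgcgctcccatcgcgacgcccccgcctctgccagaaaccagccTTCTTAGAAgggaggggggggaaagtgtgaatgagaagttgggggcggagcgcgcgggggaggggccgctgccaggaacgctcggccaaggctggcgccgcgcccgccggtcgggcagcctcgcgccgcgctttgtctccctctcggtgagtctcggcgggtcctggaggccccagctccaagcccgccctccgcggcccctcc
*Socs1* (chr16:10785487-10785786, minus strand): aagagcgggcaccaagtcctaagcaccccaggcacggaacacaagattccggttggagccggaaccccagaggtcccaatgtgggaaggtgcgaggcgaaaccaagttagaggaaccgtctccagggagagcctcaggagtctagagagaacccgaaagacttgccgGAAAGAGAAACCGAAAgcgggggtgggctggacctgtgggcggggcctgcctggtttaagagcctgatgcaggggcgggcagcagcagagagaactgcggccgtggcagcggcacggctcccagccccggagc
*Stat2* (chr10:128270248-128270547, plus strand): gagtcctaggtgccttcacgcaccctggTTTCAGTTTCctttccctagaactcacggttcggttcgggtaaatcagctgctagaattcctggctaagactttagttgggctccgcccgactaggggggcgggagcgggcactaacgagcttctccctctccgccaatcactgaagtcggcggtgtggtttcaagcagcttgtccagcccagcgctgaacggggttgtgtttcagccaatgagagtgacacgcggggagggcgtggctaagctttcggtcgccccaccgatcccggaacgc
*Cish* held 2 GAS matches, beginning at the start base itself and at position 11 after it, and 0.457% of windows hold at least 2. The *Socs3* match began at −154 from the start. *Socs1* held 2 ISRE matches that overlap each other, beginning at −83 and −77, and 0.225% of windows hold at least 2. The *Stat2* match lay on the opposite strand and began at −222. *Stat4* also held 1 ISRE match, in the second of its windows, at −97. The windows of *Stat3*, *Stat5a* and *Stat6* held neither set of letters.

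Each library held between 23204551 and 32166517 counts. Values per heart are given as CPM, counts relative to the library total after TMM scaling, a unit that compares 1 gene between hearts. Changes come from edgeR's quasi-likelihood test in 1 fit of the 12 hearts over the 15306 genes that passed a filter on low counts, with FDRs over all of them. A gene is written as having risen or fallen at an FDR below 0.05, and as called where its fold change (FC) was also 2 or greater. All 9 genes passed the filter. *Stat4* passed it through its day 7 AMI hearts, since 0 sham hearts, 1 day 1 AMI heart and 4 day 7 AMI hearts reached the filter level, so that it had to differ between groups. The 3 comparisons share groups and are not independent of one another. TPM values were tested as well, with limma, and on that scale the median log2 FC of all genes was 0.23 by day 1 and 0.44 by day 7 against sham, so that a change in TPM is read beside these shifts.

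A heart is a mixture of cells, and a lower level of a transcript in bulk RNA can mean fewer cells of a type or less RNA per cell, which cannot be told apart here. Cardiomyocyte transcripts marked all 12 libraries as heart. The summed TPM of 10 markers was 81928 to 91567 in sham, 64511 to 74773 in day 1 AMI and 57367 to 67828 in day 7 AMI. On day 7 against sham 8 of the 10 were called lower, beside 5.88% of all genes. The fibroblast list summed to 513.51 to 643.71 TPM in sham, 650.38 to 855.7 in day 1 AMI and 2661.5 to 4218.3 in day 7 AMI. The part of these shifts in the results below was not tested. The neutrophil list summed to 4.23 to 235.59 TPM in sham, 123.74 to 495.47 in day 1 AMI and 18.51 to 181.29 in day 7 AMI. Sham heart 2 stood apart from the other sham hearts, with the group's highest sums for erythroid (15170 TPM), neutrophil (235.59 TPM) and macrophage (542.33 TPM) markers, and it was also the highest sham heart for *Stat2*, *Stat3*, *Socs1*, *Socs3* and *Cish*. Results that rest on this heart are given with and without it.

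*Socs3* peaked on day 1 AMI, *Stat2* and *Stat4* were highest on day 7 AMI, and *Stat5a* was highest in sham. On day 1 AMI, *Socs1* and *Socs3* were called higher than in sham, 2 of the 9 genes, beside 7.79% of all genes tested, and *Socs3* alone was called when sham heart 1, 3 or 4 or day 1 AMI heart 1, 2 or 3 was left out. No gene of the 9 was called lower, against 2.98% of all genes. At an FDR below 0.05 alone, 5 genes rose (*Stat3*, *Stat6*, *Socs1*, *Socs2* and *Socs3*), against 22.0% of all genes, and *Stat5a* fell, against 19.9%. From day 1 to day 7 AMI, *Stat4* was called higher, against 8.55% of all genes, and *Socs3* lower, against 2.69%. At the FDR alone, *Stat2* also rose and *Stat3* also fell between these days, with 24.2% of all genes rising and 22.8% falling. On day 7 AMI, *Stat2*, *Stat4* and *Socs1* were called higher when set against sham, with a background of 15.3% of all genes, and none was called lower, with a background of 5.88%. At the FDR alone *Socs2* rose as well, against 30.9% of all genes, and *Stat5a* fell, against 28.4%. The median log2 FC of the 9 genes was 0.54, −0.06 and 0.28 in the 3 comparisons in this order, beside −0.01, 0.02 and 0.03 over all genes tested.

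**Figure D1:**
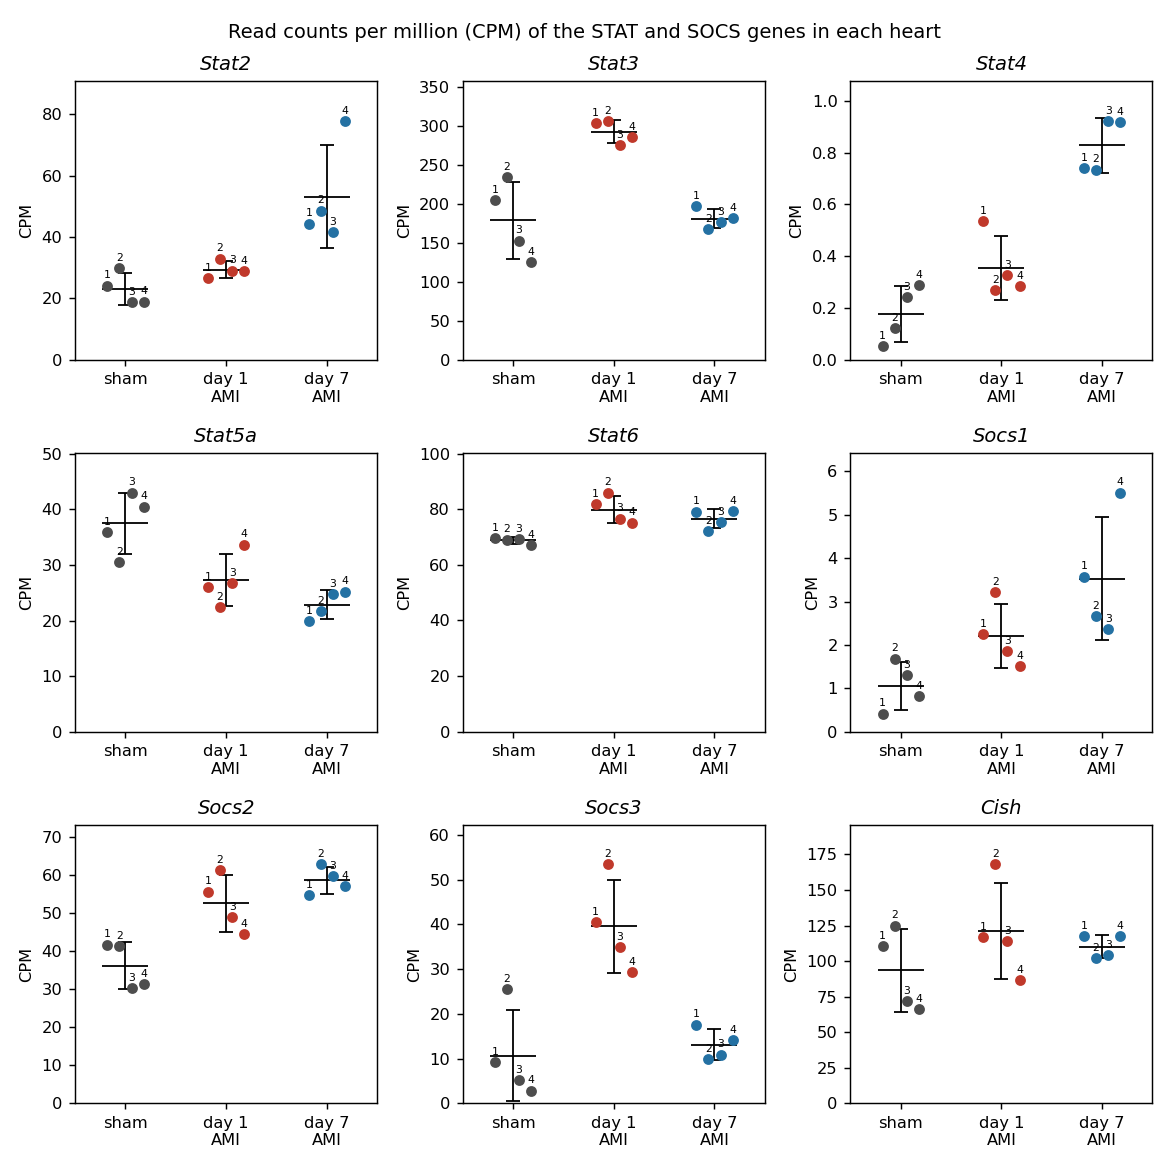
CPM (linear axis from 0) of each gene in each heart, by group, with small digits giving the replicate number and black bars the mean and SD of 4 hearts. *Stat3* and *Socs3* were highest in the 4 day 1 AMI hearts, *Stat2* and *Stat4* in the 4 day 7 AMI hearts, and *Stat5a* ran from 30.5 to 43.0 CPM in sham to between 19.8 and 25.2 CPM in day 7 AMI.

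*Stat3* (chr11:100885098-100939540, minus strand, GRCm38 as for the other genes) encodes the transcription factor of IL-6 family signals, best known in the heart for protecting myocytes from ischemic injury. It read 204.7, 234.3, 153.0 and 125.3 CPM in the sham hearts, 304.0, 306.9, 275.4 and 286.5 in day 1 AMI, and 197.0, 168.0, 177.1 and 182.4 in day 7 AMI. All day 1 AMI hearts lay above all others, and the day 7 AMI hearts lay inside the range of the sham hearts. *Stat3* rose by day 1 with a log2 FC of 0.71 (SE 0.150, edgeR FDR = 0.00202) and fell again by day 7 (log2 FC −0.69, SE 0.150, FDR = 0.00177). Between day 7 AMI and sham the log2 FC was 0.01 (SE 0.150, FDR = 0.942). Neither change reached a FC of 2. On log2(TPM + 1), day 7 AMI stood 0.60 above sham (limma, FDR = 0.00669), and the step from day 1 to day 7 was −0.33 (FDR = 0.130), without passing the threshold.

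*Socs3* (chr11:117966079-117970047, minus strand) encodes the inhibitor that binds gp130 and JAKs and ends IL-6 family signals. It read 9.23, 25.5, 5.19 and 2.87 CPM in sham, 40.5, 53.4, 35.0 and 29.3 in day 1 AMI, and 17.6, 9.93, 10.9 and 14.1 in day 7 AMI. Every day 1 AMI heart lay above every other heart, although sham heart 2 came within reach of the lowest of them. The log2 FC from sham to day 1 AMI was 1.87 (SE 0.463, FDR = 0.00547), and from day 1 to day 7 AMI it was −1.58 (SE 0.453, FDR = 0.0106). Against sham, day 7 AMI differed by 0.28 (SE 0.464, FDR = 0.618). Without sham heart 2 the rise by day 1 was 2.79 (FDR = 8.53e-05) and *Socs3* was also called higher in day 7 AMI than in sham, with a log2 FC of 1.20 (FDR = 0.00648), a comparison that gave 1.02 on log2(TPM + 1) with all hearts (limma, FDR = 0.0438). Of the 10 genes of the neutrophil list 9 passed the filter. Of these, 6 were called higher on day 1 than in sham (7.79% of all genes) and 5 lower on day 7 than on day 1 (2.69%). On day 7 against sham 3 were called higher (15.3% of all genes) and 1 lower (5.88%). The part of neutrophils in this result was not tested. Of the neutrophil markers, *Ly6g*, *Retnlg*, *Il1r2*, *Trem1* and *Clec4d* were listed at 0 TPM in some hearts. Which markers passed the filter only through AMI hearts is not given here. Such a marker had to be higher there, and no support is drawn from the counts of neutrophil markers called.

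*Stat3* and *Socs3* code for a factor and its own brake, and their ratio within a heart does not depend on how the library was scaled. The ratio of *Socs3* to *Stat3* TPM was 0.0656, 0.183, 0.0600 and 0.0327 in the sham hearts. It was 0.229, 0.304, 0.228 and 0.175 in day 1 AMI and 0.124, 0.0998, 0.103 and 0.122 in day 7 AMI. Sham heart 2 therefore stood above day 1 AMI heart 4, and the other 3 sham hearts stood below all AMI hearts. The day 1 and day 7 AMI hearts did not overlap.

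**Figure D2:**
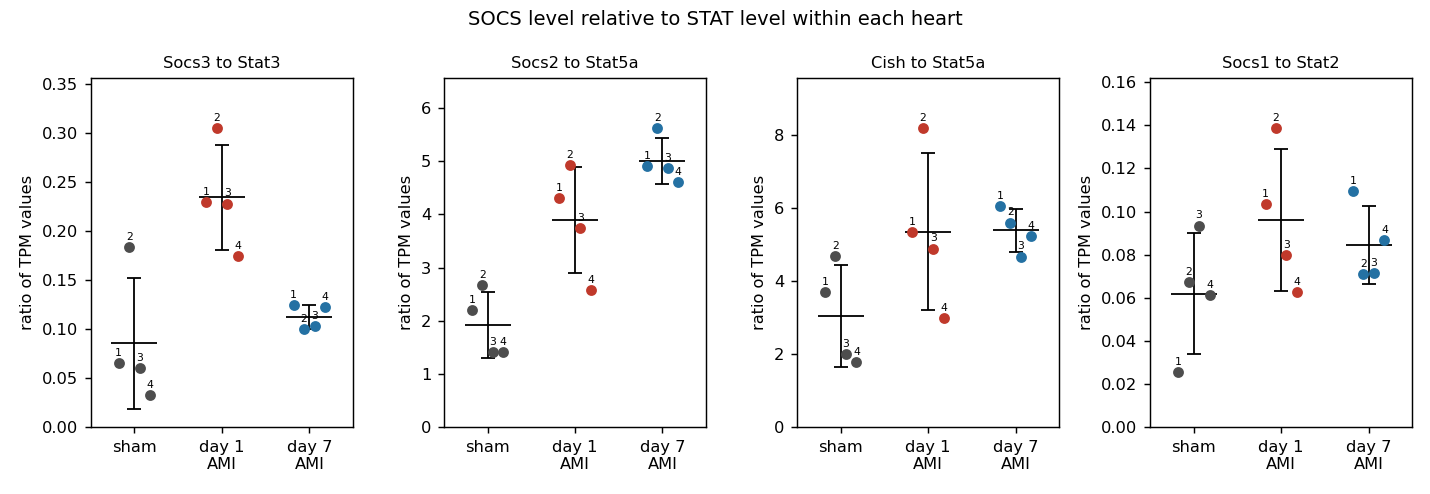
Ratio of TPM values within each heart (linear axis from 0) for 4 pairs of a SOCS gene and a STAT gene, by group, with digits giving the replicate number and black bars the mean and SD of 4 hearts. The *Socs3* to *Stat3* ratio was between 0.175 and 0.304 on day 1 AMI and between 0.0998 and 0.124 on day 7 AMI, and the *Socs2* to *Stat5a* ratio was highest on day 7 AMI on average, at 5.0.

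*Stat2* (chr10:128270559-128292849, plus strand) encodes a factor that works with IRF9 in the type I interferon response. It read 24.2, 29.8, 18.8 and 19.0 CPM in sham, 26.6, 33.0, 29.1 and 29.0 in day 1 AMI, and 44.4, 48.6, 41.6 and 77.9 in day 7 AMI. The day 7 AMI hearts lay above all others, with heart 4 far above the remaining hearts of its group. *Stat2* rose from sham to day 7 AMI by a log2 FC of 1.21 (SE 0.192, FDR = 8.89e-05) and from day 1 to day 7 AMI by 0.85 (SE 0.188, FDR = 0.00207). Its change by day 1 was 0.36 (SE 0.191, FDR = 0.149), and without sham heart 2 it was 0.51 and passed the threshold (FDR = 0.0471). Without day 7 AMI heart 4 the change from sham to day 7 was 0.97 (FDR = 0.000101), just under a FC of 2.

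*Socs1* (chr16:10782240-10785536, minus strand) encodes the main inhibitor of interferon receptors and their JAKs. It was scarce, with 8, 41, 27 and 17 counts in the sham libraries, 59, 108, 57 and 48 in day 1 AMI, and 116, 69, 64 and 162 in day 7 AMI. These are 0.417, 1.68, 1.31 and 0.813 CPM, then 2.26, 3.22, 1.86 and 1.51, and then 3.58, 2.67, 2.36 and 5.51. The sham and day 1 AMI hearts overlapped, and all day 7 AMI hearts lay above all sham hearts. The log2 FC by day 1 was 1.05 (SE 0.386, FDR = 0.0421), and by day 7 it was 1.72 (SE 0.381, FDR = 0.00137). From day 1 to day 7 AMI it was 0.67 (SE 0.348, FDR = 0.127). The day 1 call was lost in 6 of 8 fits that left out 1 heart, those without sham heart 1, 3 or 4 or day 1 AMI heart 1, 2 or 3, with FDRs up to 0.139 without day 1 AMI heart 2, and the exact permutation p for day 1 was 0.0571, where 0.0286 is the smallest that 4 hearts against 4 can give. The ratio of *Socs1* to *Stat2* TPM ran from 0.0257 to 0.0935 in sham, 0.0626 to 0.139 in day 1 AMI and 0.0711 to 0.109 in day 7 AMI, so that the groups overlapped.

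*Stat4* (chr1:51987148-52107189, plus strand) encodes the IL-12 responsive factor of T and NK cells. Its libraries held 1, 3, 5 and 6 counts in sham, 14, 9, 10 and 9 in day 1 AMI, and 24, 19, 25 and 27 in day 7 AMI. In CPM these were 0.0522, 0.123, 0.242 and 0.287, then 0.535, 0.269, 0.327 and 0.284, and then 0.740, 0.734, 0.922 and 0.918. The day 7 AMI hearts lay above all others, and the sham and day 1 AMI hearts overlapped. The log2 FC was 2.20 from sham to day 7 AMI (SE 0.405, FDR = 0.000313) and 1.24 from day 1 to day 7 AMI (SE 0.346, FDR = 0.00942), and by day 1 it was 0.97 (SE 0.438, FDR = 0.0908). The T and NK cell list summed to 2.79 to 3.40 TPM in sham, 4.04 to 12.6 in day 1 AMI and 9.82 to 22.1 in day 7 AMI. Of its 11 genes 8 passed the filter, and all 8 were called higher on day 7 against sham, beside 15.3% of all genes. How many of the 8 passed only through AMI hearts is not given here. Any that did had to be higher there, so no support is drawn from this count. The part of this list in the *Stat4* result was not tested. *Cd3d*, *Klrb1c* and *Ncr1* of this list were listed at 0 in some hearts. Of the exon bases of *Stat4*, 26.7% are shared with *Gm28177*, a transcript on the same strand, so that reads from the 2 genes cannot be told apart there.

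*Stat5a* (chr11:100859351-100885169, plus strand) encodes a factor of growth hormone, prolactin and blood cell cytokine signals, and was the member that fell after infarction. It read 35.9, 30.5, 43.0 and 40.5 CPM in sham, 26.1, 22.4, 26.8 and 33.7 in day 1 AMI, and 19.8, 21.6, 24.8 and 25.2 in day 7 AMI. All day 7 AMI hearts lay below all sham hearts, and day 1 AMI heart 4 was the only one of its group inside the sham range. *Stat5a* fell by day 1 with a log2 FC of −0.46 (SE 0.134, FDR = 0.0134) and stood at −0.71 against sham on day 7 (SE 0.134, FDR = 0.000385). From day 1 to day 7 AMI the log2 FC was −0.25 (SE 0.134, FDR = 0.134), which turned to 0.02 on log2(TPM + 1). In TPM the fall against sham was −0.11 by day 1 and −0.09 by day 7 (limma, FDR = 0.556 and 0.580), which did not pass the threshold. *Stat5b*, the near-identical neighbor of *Stat5a*, also fell, with log2 FCs of −0.31 by day 1 (FDR = 0.0109) and −0.54 by day 7 (FDR = 0.000118), while its mean TPM was 22.4 in sham, 22.5 on day 1 and 22.3 on day 7. How reads that align to both genes were counted is not given in the sources used here. *Stat3* and *Stat5a* meet tail to tail and share 72 exon bases, which are 0.76% and 1.01% of their exon bases.

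*Stat6* (chr10:127642986-127660957, plus strand) encodes the IL-4 and IL-13 factor, known for alternative activation of macrophages. It varied least among the 9 genes, with 69.5, 69.1, 69.4 and 67.1 CPM in sham, 81.8, 86.0, 76.7 and 75.2 in day 1 AMI, and 79.2, 72.3, 75.5 and 79.5 in day 7 AMI. The hearts of both AMI groups lay above all sham hearts. *Stat6* rose by day 1 with a log2 FC of 0.22 (SE 0.0669, FDR = 0.0186), and against sham day 7 AMI differed by 0.16 (SE 0.0670, FDR = 0.0592). The day 1 rise missed the threshold without sham heart 4 or day 1 AMI heart 1 or 2 (FDR = 0.0509, 0.0526 and 0.0639), and the day 7 difference passed it without day 7 AMI heart 2 (FDR = 0.0445). From day 1 to day 7 AMI the log2 FC was −0.06 (FDR = 0.472) and 0.17 on log2(TPM + 1) (limma, FDR = 0.166). In TPM, *Stat6* stood 0.55 above sham on day 1 and 0.72 on day 7 (limma on log2(TPM + 1), FDR = 0.000613 and 2.48e-05). The median of all genes moved by 0.23 and 0.44 on that scale.

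*Socs2* (chr10:95385362-95417180, minus strand) encodes the inhibitor of the growth hormone receptor. It read 41.7, 41.2, 30.3 and 31.3 CPM in sham, 55.6, 61.3, 48.8 and 44.4 in day 1 AMI, and 54.6, 62.7, 59.7 and 57.0 in day 7 AMI. Every AMI heart lay above every sham heart. *Socs2* rose by day 1 with a log2 FC of 0.54 (SE 0.123, FDR = 0.00316) and stood 0.70 above sham on day 7 (SE 0.123, FDR = 0.000223), while the step between the AMI groups was 0.16 (SE 0.121, FDR = 0.309) and 0.41 on log2(TPM + 1) (limma, FDR = 0.0115). On log2(TPM + 1), day 7 AMI stood 1.29 above sham (limma, FDR = 8.13e-07), so that *Socs2* was called there, where the median of all genes moved by 0.44. The ratio of *Socs2* to *Stat5a* TPM ran from 1.42 to 2.68 in sham, 2.58 to 4.93 in day 1 AMI and 4.61 to 5.62 in day 7 AMI. Sham and day 7 AMI did not overlap in this ratio, and day 1 AMI overlapped both.

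*Cish* (chr9:107296026-107302784, plus strand) encodes CIS, an inhibitor of STAT5 signals. It read 110.8, 125.1, 71.7 and 66.3 CPM in sham, 116.7, 168.0, 114.0 and 86.7 in day 1 AMI, and 117.4, 102.3, 104.1 and 117.5 in day 7 AMI. The 3 groups overlapped. Log2 FCs were 0.38 by day 1 (SE 0.207, FDR = 0.159), −0.14 from day 1 to day 7 (SE 0.206, FDR = 0.608) and 0.24 by day 7 (SE 0.207, FDR = 0.337). *Cish* was thus the gene of the 9 with no change below the FDR threshold in any comparison of all hearts. Without sham heart 2 it was 0.55 above sham on day 1 (FDR = 0.0456), and on log2(TPM + 1) it stood 0.71 above sham on day 1 and 0.82 on day 7 (limma, FDR = 0.0149 and 0.00369). Of its exon bases, 7.46% overlap *Gm17041* and 4.07% *Gm17040*, both on the opposite strand, and the strand that was counted is not given.

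**Figure D3:**
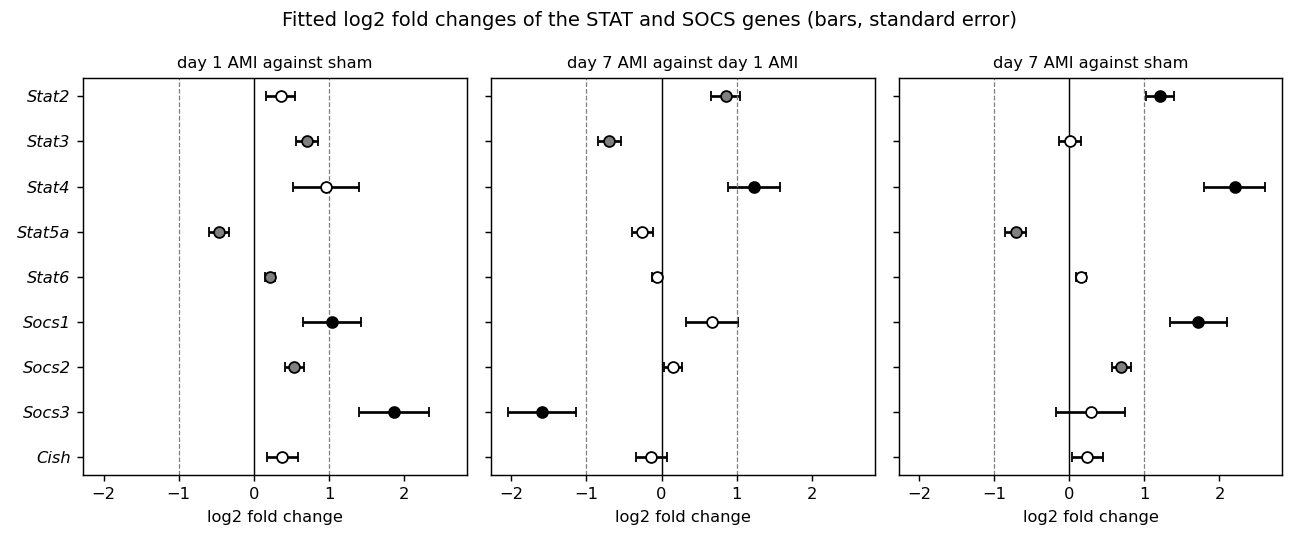
Fitted log2 FC (points, with bars of 1 SE) of the 9 genes in the 3 comparisons. Black points were called, grey points passed the FDR threshold alone, white points passed neither, and dashed lines mark log2 FCs of −1 and 1. *Socs3* lay at 1.87 by day 1 and −1.58 from day 1 to day 7, and *Stat4* at 2.20 by day 7.

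Levels of different genes were compared in TPM, which is per length. *Stat3* was the most abundant of the 9 in every group, at 53.8 ± 14.6 TPM in sham, 101.0 ± 7.56 on day 1 and 80.7 ± 14.2 on day 7 (mean ± SD, n = 4). *Cish* came second at 36.9 ± 11.6, 60.3 ± 16.9 and 63.8 ± 6.63 TPM, and *Socs2* next at 23.7 ± 4.10, 44.4 ± 5.27 and 59.0 ± 2.55 TPM. *Stat6* followed at 23.3 ± 2.35, 34.5 ± 2.59 and 39.1 ± 3.97 TPM. In sham, the ranges of *Stat3* and *Cish*, *Cish* and *Socs2*, and *Socs2* and *Stat6* overlapped. Within each of the 4 sham hearts *Stat3* was above *Cish* and *Cish* above *Socs2*, while *Socs2* was above *Stat6* in 2 of 4. *Cish* and *Socs2* also overlapped on day 1 and on day 7, with *Cish* above *Socs2* in 4 of 4 hearts on day 1 and 2 of 4 on day 7. Lower down, the order changed between groups. *Stat5a* (12.8 ± 2.21 TPM) was above *Stat2* (7.36 ± 2.74) and *Socs3* (5.21 ± 5.28) in sham on average. Its range overlapped those of both, and it was above *Stat2* in 3 of 4 hearts. In sham heart 2, *Socs3* (12.96 TPM) and *Stat2* (11.44 TPM) were above *Stat5a* (11.01 TPM). In the other sham hearts *Stat5a* was above both. In day 1 AMI, *Socs3* (23.6 ± 6.12) was above *Stat2* (12.4 ± 0.787) and *Stat5a* (11.8 ± 2.13), and the latter pair overlapped. In day 7 AMI, *Stat2* (26.3 ± 10.2) was above *Stat5a* (11.9 ± 1.26) and *Socs3* (9.19 ± 2.60), and again the latter pair overlapped. *Socs1* reached 0.463 ± 0.268, 1.18 ± 0.388 and 2.23 ± 0.979 TPM, and *Stat4* was last in each group at 0.103 ± 0.0568, 0.360 ± 0.329 and 0.855 ± 0.273 TPM. The *Stat4* value of 0.850 TPM in day 1 AMI heart 1 came from 14 counts, while 9 or 10 counts gave 0.170 to 0.250 TPM in the other hearts of the group.

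**Figure D4:**
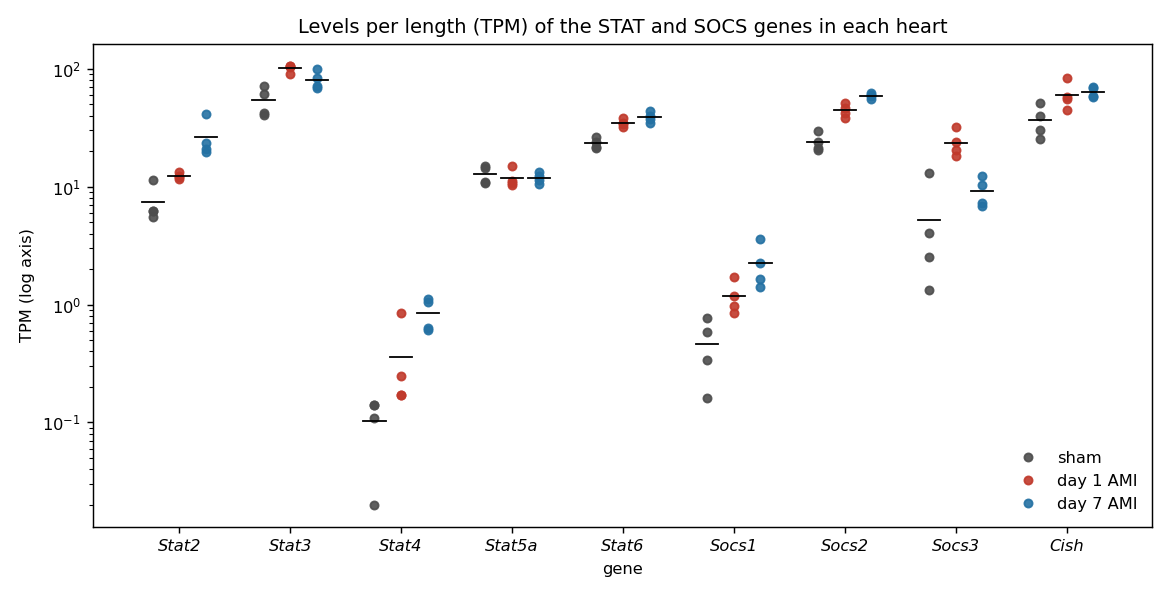
TPM (log axis) of the 9 genes in each heart, colored by group, with black lines at the group means. *Stat3* lay highest, at a mean of 53.8 to 101.0 TPM, and *Stat4* lowest, at 0.103 to 0.855 TPM.

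The 5 STAT genes together summed to 82.5 to 119.7 TPM in sham, 144.9 to 166.9 in day 1 AMI and 138.0 to 183.6 in day 7 AMI. *Stat3* made up 48.5% to 61.6% of this sum in sham, 61.8% to 64.2% in day 1 AMI and 45.7% to 57.8% in day 7 AMI. The share of *Stat2* was 6.26% to 9.56% in sham, 7.15% to 8.38% in day 1 AMI and 12.0% to 22.6% in day 7 AMI, so that the day 7 AMI hearts did not overlap the others. The share of *Stat5a* was 9.20% to 17.3% in sham, 6.18% to 8.95% in day 1 AMI and 6.60% to 8.65% in day 7 AMI. Among the 4 SOCS genes, *Socs3* took 2.80% to 13.7% of the summed TPM in sham, 17.2% to 19.1% in day 1 AMI and 5.41% to 8.89% in day 7 AMI.

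For each of the 9 genes, the 3 genes with the most similar profile over the 12 hearts were found among 13433 or 13434 genes with a mean of at least 1 CPM, as the smallest root-mean-square (RMS) difference of centered log2 CPM. For *Stat2* they were *Sp110*, *Arrdc1* and *Oas2* (RMS differences of 0.124, 0.133 and 0.142, where the SD of *Stat2* was 0.563). *Sp110* and *Oas2* are interferon-stimulated genes. For *Stat3* they were *Alpl*, *Mical3* and *Slc39a14* (0.124, 0.140 and 0.141, SD 0.402). For *Socs3* they were the immediate early gene *Fos*, the neutrophil chemokine gene *Cxcl1* and *S100a4* (0.348, 0.388 and 0.425, SD 1.20). *Cxcl1* had log2 FCs of 2.19 by day 1 and −2.04 from day 1 to day 7, beside 1.87 and −1.58 for *Socs3*. For *Socs1* they were *Plk3*, *Oasl1* and *Nfkbie* (0.292, 0.322 and 0.347, SD 0.899), and for *Stat4* *Dclk2*, *Dock10* and *Fscn1* (0.290, 0.313 and 0.315, SD 0.896). *Stat5a* was nearest to *Urod*, *Nlrx1* and *Hsd17b4* (0.0922, 0.0941 and 0.101, SD 0.345), *Stat6* to *Tmem127*, *Tardbp* and *Rmnd5b* (0.0522, 0.0548 and 0.0609, SD 0.106), *Socs2* to *Dubr*, *Calm2* and *Ptpn12* (0.0928, 0.10 and 0.116, SD 0.345), and *Cish* to *Adamts9*, *Ccdc137* and *Rara* (0.153, 0.158 and 0.162, SD 0.346).

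The other genes of the pathway were followed by lists. Of the 7 ligands of gp130, which drive STAT3, 6 were called higher on day 1 AMI than in sham (*Il6*, *Il11*, *Lif*, *Osm*, *Clcf1* and *Cntf*), against 7.79% of all genes tested. On day 7, 5 of the 7 were called higher than in sham, with 15.3% of all genes, and 4 were called lower than on day 1, with 2.69% of all genes. *Il6*, *Il11* and *Osm* reached the filter level in 0 sham hearts, so that they passed through the AMI groups and had to be higher there, and no support is drawn from these counts. The median log2 FC of this list was 2.54 by day 1. It includes *Il6*, *Il11* and *Osm*, and no support is drawn from it either. *Ctf1*, the other ligand, went from 7.92 CPM in sham to 6.02 on day 1 and 4.36 on day 7. It fell at the FDR alone between the AMI days and on day 7 against sham, with 22.8% and 28.4% of all genes falling. *Clcf1* went from 2.46 CPM in sham to 13.9 on day 1 and 5.32 on day 7, and *Lif* from 0.50 to 3.0 and 2.4. Of the 6 gp130 receptor genes, *Osmr* was called higher by day 1, with a log2 FC of 1.12 (FDR = 0.00124), beside 7.79% of all genes. That call was lost without sham heart 3 or 4. *Il6st*, which encodes gp130 itself, stood at 0.06 by day 1 and −0.06 from day 1 to day 7 (FDR = 0.576 and 0.530). None of the 4 JAK genes was called in any comparison, and *Tyk2* rose with log2 FCs of 0.33 by day 1 and 0.44 by day 7 (FDR = 0.0128 and 0.00102). *Jak2* and *Jak3* also rose by day 7 against sham, where 30.9% of all genes rose. Their means went from 34.6 to 41.2 and from 37.4 to 49.8 CPM, with sham heart 2 at 54.3 CPM of *Jak3*. *Jak1* fell by 0.21 on the log2 scale by day 1 and by 0.18 by day 7 in counts (FDR = 0.0286 and 0.0402). In TPM its direction was the opposite, with means of 38.5 in sham, 42.3 on day 1 and 51.1 on day 7 and all day 7 AMI hearts above all sham hearts. Of the SOCS genes outside the 9, *Socs4*, *Socs5* and *Socs7* had log2 FCs between −0.26 and 0.17 with no FDR below 0.05.

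Of 12 genes known to respond to STAT3, 9 were called higher on day 1 AMI than in sham, against 7.79% of all genes, and 6 lower on day 7 than on day 1, against 2.69%. *Reg3b*, which is in both counts, reached the filter level in 4 day 1 AMI hearts and 0 others, so that it had to be higher there. The latter count was 2 without day 1 AMI heart 2. The list had a median log2 FC of 1.52 by day 1 and −0.87 from day 1 to day 7, beside −0.01 and 0.02 over all genes. The iron-binding protein gene *Lcn2* went from 8.64 CPM in sham to 129 on day 1 and 2.99 on day 7. *Lcn2* was called lower on day 7 than in sham, beside 5.88% of all genes. That call was lost without sham heart 2, with limma on TPM and with DESeq2 on the 2 groups. The proto-oncogene *Myc* went from 4.21 to 17.0 and 8.11 CPM. *Timp1*, an inhibitor of matrix proteases, went from 2.89 to 100.3 and 45.4. *Osmr* and *Il4ra* stand on this list and also on lists of receptors. The 14 interferon-stimulated genes, known to respond to STAT2 with IRF9, had a median log2 FC of 0.59 by day 1. At the FDR alone 9 rose (22.0% of all genes) and 1 fell (19.9%), and 2 were called higher (7.79%). From day 1 to day 7, 9 were called higher (8.55% of all genes), and on day 7 against sham 11 (15.3%), and none was called lower. The day 1 count was 6 without sham heart 2, 4 without day 1 AMI heart 4 and 1 without day 1 AMI heart 2. *Ifit2* read 15.4 CPM in sham, 18.5 on day 1 and 44.3 on day 7, and *Cmpk2* 10.3, 10.4 and 25.6. The summed TPM of this list was 99.2 to 186.0 in sham, 229.5 to 277.0 in day 1 AMI and 386.3 to 662.2 in day 7 AMI, and sham heart 2 and day 7 AMI heart 4 were the highest of their groups, as they were for *Stat2* and *Socs1*. Genes known to respond to STAT6 were called higher by day 1 for 4 of 9 and lower for 1 (*Retnla*), and 4 were called lower from day 1 to day 7, against 7.79%, 2.98% and 2.69% of all genes. The latter 4 included *Chil3* (1.42, 37.7 and 1.75 CPM) and *Arg1* (0.0121, 52.6 and 4.73 CPM). *Arg1* and *Ccl17* of this list reached the filter level in 0 sham hearts. Of 8 genes known to respond to STAT5, *Osm*, which is also a gp130 ligand, was called higher by day 1, beside 7.79% of all genes. *Osm* reached the filter level in 0 sham hearts and had to be higher after AMI, so no support is drawn from its calls. *Osm* and *Igf1* were called higher on day 7 than in sham, beside 15.3%, *Igf1* at a log2 FC of 2.16 (FDR = 5.00e-08). Between the AMI days *Igf1* was called higher and *Osm* lower, beside 8.55% and 2.69%. At the FDR alone 5 of the 8 fell and 2 rose between these days, beside 22.8% and 24.2% of all genes. Of 3 tested genes known to respond to STAT4, 2 were called higher by day 1 and 3 by day 7, against 7.79% and 15.3% of all genes, although *Tbx21* reached the filter level in 0 sham hearts. They included *Il18rap* with log2 FCs of 2.03 and 2.09 (FDR = 0.00244 and 0.000944), and the day 1 count was 1 without sham heart 2, 3 or 4 or day 1 AMI heart 1 or 3.

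**Figure D5:**
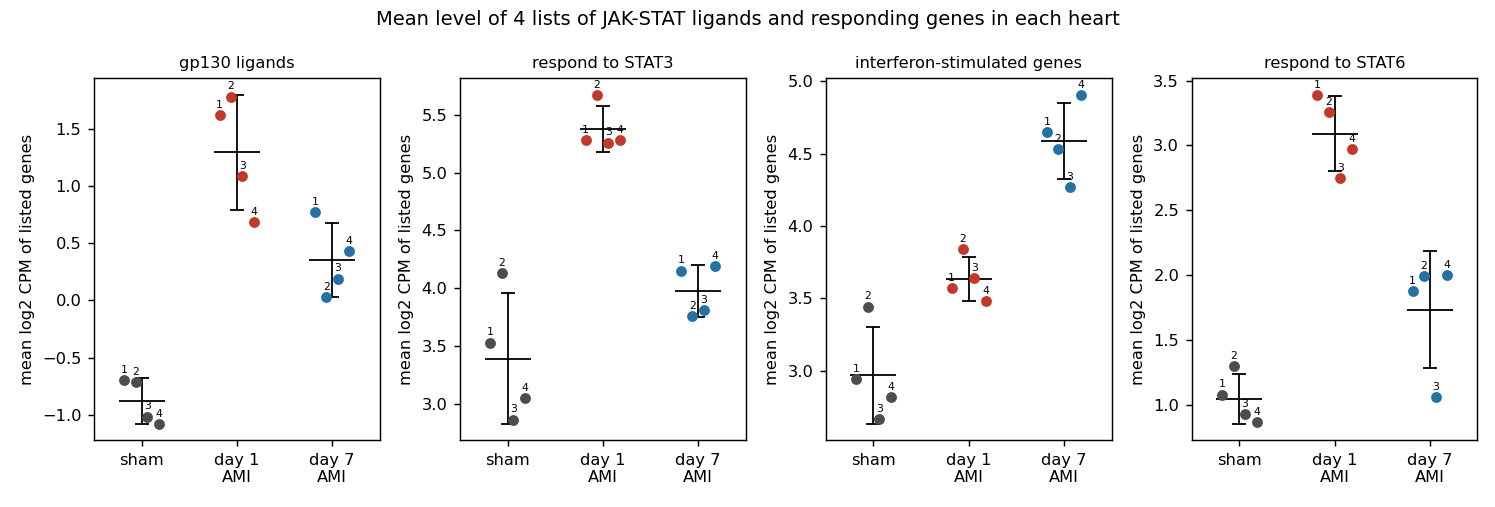
Mean log2 CPM of the tested genes of 4 lists in each heart, by group, with digits giving the replicate number and black bars the mean and SD of 4 hearts. The gp130 ligands and the STAT3 and STAT6 lists were highest in day 1 AMI, and the interferon-stimulated list was highest in day 7 AMI, where heart 4 reached 4.90.

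Receptors upstream of STAT4, STAT5 and STAT6 were followed as a list of their own. Of 10 tested genes for the common gamma and beta chain, IL-4 and IL-12 receptors, 6 were called higher by day 1 and 8 by day 7, against 7.79% and 15.3% of all genes, and none lower, with *Il7r* passing the filter through the AMI hearts. *Il21r* had log2 FCs of 2.47 by day 1 and 2.97 by day 7 (FDR = 2.40e-05 and 5.52e-07). *Il12rb1* and *Il12rb2*, the receptor chains upstream of STAT4, did not pass the filter. Of 17 other JAK-STAT ligands 3 passed the filter, and *Il4*, *Il13*, *Il12a*, *Il12b* and *Ifng* were among those that did not. *Il15* read 24.5 CPM in sham, 21.2 on day 1 and 10.5 on day 7. It was called lower on day 7 against day 1 and against sham, beside 2.69% and 5.88% of all genes. Both calls were lost with limma on TPM, and the first also with the replicate block. *Thpo* was called higher in both comparisons, but passed the filter through its day 7 AMI hearts and had to be higher there. *Prlr*, the prolactin receptor gene upstream of STAT5, was called lower by day 1 with a log2 FC of −1.01 (FDR = 0.00298), beside 2.98% of all genes. That call was lost without sham heart 1 or day 1 AMI heart 2, without the filter, with the replicate block and with limma on TPM. Of the same 5 tested receptors, *Csf3r*, the G-CSF receptor gene, was called higher by day 1 (2.83 CPM in sham and 27.0 on day 1) and lower from day 1 to day 7 (8.90 CPM), beside 7.79% and 2.69% of all genes. *Epor*, the erythropoietin receptor gene, was called higher from day 1 to day 7 (0.809 to 1.88 CPM), beside 8.55%. Among 9 other brakes on the pathway, *Ptpn6*, the phosphatase gene of blood cells, was called higher by day 1 and by day 7 (log2 FCs of 1.61 and 1.78, FDR = 8.40e-05 and 7.24e-06). This was 1 gene of 9, beside 7.79% and 15.3% of all genes. The 4 subunits of the ubiquitin ligase that the SOCS box recruits were not called. All 4 fell by day 7 against sham at the FDR alone (28.4% of all genes), with a median log2 FC of −0.46 in counts. In TPM the means of these 4 genes (*Elob*, *Eloc*, *Cul5* and *Rnf7*) were higher on day 7 than in sham, for example 126.7 in sham and 148.9 on day 7 for *Eloc*. The monocyte and macrophage markers summed to 284.5 to 542.3 TPM in sham, 686.4 to 1017 in day 1 AMI and 1209 to 1976 in day 7 AMI. By day 7, 10 of 11 were called higher than in sham, beside 15.3% of all genes. Whether any of them passed the filter only through AMI hearts is not given here. The part of these markers in the rises of the receptors and of *Stat2* and *Socs1* was not tested.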

How the data were processed

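RNA from 12 whole mouse hearts, 4 in each of 3 groups by their labels, was analysed. Paired-end reads were trimmed by the authors (Cutadapt), mapped to Ensembl GRCm38, which the submitters' processing notes call mm10, with STAR 2.4.0j, and quantified per gene with RSEM. The authors deposited raw counts of reads per gene, without normalization, and TPM per gene from RSEM. How reads were counted, on which strand, and what was done with multi-mapping reads is not given in the sources used here. TPM keeps no depth and is relative to all transcripts of a library.

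The 9 genes, the lists and the tests were chosen with earlier results of these data known. Counts of 23204551 to 32166517 per library were filtered with filterByExpr by group, scaled by TMM and tested with edgeR 4.0.16 in R 4.3.3 (quasi-likelihood test, 1 fit of 3 groups), with Benjamini-Hochberg adjustment over 15306 genes. SEs are those implied by the F statistic. Code was tested on simulated data. Hearts of a group differed by more than counting noise (smallest chi-square per degree of freedom 9.41). Exact two-sided permutation tests compared 4 hearts with 4 on log2 CPM (prior count 2). Levels between genes were compared in TPM, with limma 3.58.1 on log2(TPM + 1) and log2(TPM + 0.1) as alternatives, beside DESeq2 1.42.0, RLE size factors, no filter, 2 groups only, a replicate block, no FC minimum, and leaving out each heart. Genes named beside the 9 are those called in a list, at most 4 per list and comparison by size of change with a group mean of 1 CPM or more, all JAK, gp130 ligand and gp130 receptor genes, and 3 nearest profiles per gene. *Stat5b*, *Socs4*, *Socs5*, *Socs7*, *Elob*, *Eloc*, *Cul5*, *Rnf7*, the overlapping transcripts and genes singled out for how they stood to the filter were named after their values were seen. Gene coordinates are from the GENCODE annotation of GRCm38, promoter windows from RefSeq. Figures were drawn with matplotlib 3.10.9. A gene of the pathway lists is not reported here.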

Additional observations from a re-analysis of the deposited data

Results flagged for a closer look

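In sham hearts *Stat6* was tightly grouped, and heart 4, at 67.1 CPM, lay farther from the others (69.1 to 69.5 CPM) than 95% of such groups of 4 allow. This was 1 of 39 such tests, of which chance flags about 1 in 20. Between day 1 and day 7 AMI, both set against the same sham hearts, the change of 4 genes differed by edgeR's test. The sham hearts cancel in this difference, so that it is the day 7 against day 1 AMI comparison given above and not a further result. At this FDR 24.2% of all genes rose and 22.8% fell. The log2 difference was 0.85 for *Stat2* (FDR = 0.00207), −0.69 for *Stat3* (FDR = 0.00177), 1.24 for *Stat4* (FDR = 0.00942) and −1.58 for *Socs3* (FDR = 0.0106). The day 1 and day 7 AMI hearts did not overlap in these genes, and how many of all genes share this was not counted. *Stat4* passed the filter through its day 7 AMI hearts and had to be higher there, so no support is drawn from its difference.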

How the results depend on the processing

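Of 188 log2 FCs of members under count-based alternatives that kept all hearts of the groups compared or left out sham heart 2 and day 7 AMI heart 4, 4 crossed an FDR of 0.05 and 3 turned sign, and of 54 from limma on TPM, 21 crossed it and 6 turned. Of 216 with 1 heart left out, 13 crossed it and 5 turned. In the 2-group edgeR fit of day 1 AMI and sham, *Stat4* did not pass the filter. The number of members called higher on day 1 was 2 and went to 1 with the replicate block or limma on log2(TPM + 1), to 5 without a FC minimum, and to between 1 and 2 when 1 heart was left out. The 1 that was lost was *Socs1* (block FDR = 0.0570). Without a FC minimum, 1 member was lower on day 1, 2 were higher and 2 lower from day 1 to day 7, and 1 was lower on day 7 against sham. From day 1 to day 7, limma called 0 members higher on log2(TPM + 1) and 2 on log2(TPM + 0.1), and on day 7 against sham 5 were called higher on log2(TPM + 0.1), where 27.2% of all genes were. Signs turned from day 1 to day 7 for *Stat5a* (0.0176 and 0.0196), *Stat6* (0.172 and 0.176) and *Cish* (0.112 and 0.114) with limma at pseudocounts of 1 and 0.1, and for *Cish* with 1 heart left out (−0.27 to 0.057). For *Stat3* on day 7 against sham the value was −0.0081 with RLE size factors, −0.0086 with DESeq2 on 12 hearts and −0.0058 on 2 groups, and −0.13 to 0.17 with 1 heart left out. *Socs3* on day 7 against sham ran from −0.032 to 1.20 with 1 heart left out, and was 1.17 with sham heart 2 and day 7 AMI heart 4 both left out, an alternative chosen after seeing the data. Limma on TPM moved the median log2 FC of all genes to between 0.18 and 0.57, and the share of calls that were higher to 93.8%, 87.1% and 96.0% on log2(TPM + 1) from 72.3%, 76.1% and 72.3%. The cause was not tested. With limma on log2(TPM + 0.1) this share was 92.4%, 89.3% and 95.7%. Limma on log2(TPM + 1) called 3 of 7 gp130 ligands higher on day 1, and 0 lower from day 1 to day 7. Hearts with the same replicate number did not deviate together (correlations of −0.244 to 0.229, best with their own number in 5 of 24 cases), so that they share only a number, and the replicate block changed no other member call. The order of levels per length kept *Stat3* at the top and *Stat4* at the bottom with CPM per kb of exons, but other places moved. *Stat6* was at place 2, ahead of *Cish* at place 3, in sham and day 7 AMI. *Socs2*, at place 3 by TPM in each group, went to place 6 in sham and place 5 in both AMI groups. *Stat5a* went to place 4 in sham, ahead of *Stat2* at place 5. On day 7 AMI it went to place 7, below *Socs3* at place 6, and *Stat2* went to place 4. On day 1 AMI *Stat6* went to place 3 and *Socs3* to place 4. Counting error limits *Stat4* and *Socs1*, with as few as 1 and 8 counts in a library.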

Other observations

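Among the 9 genes themselves, *Socs2* and *Cish* had the most similar profiles over the 12 hearts, with an RMS difference of centered log2 CPM of 0.251. *Stat6* and *Socs2* followed at 0.273, and *Stat3* was nearest to *Cish* at 0.307. These distances are a description over 12 hearts that share library depth and group, with no test.

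In the day 1 AMI group, heart 2 had the highest CPM of *Stat2*, *Stat3*, *Stat6*, *Socs1*, *Socs2*, *Socs3* and *Cish* and the group's highest neutrophil and macrophage marker sums (495.47 and 1017 TPM), and it was lowest for *Stat4* and *Stat5a*. In day 7 AMI, heart 4 was highest for *Stat2*, *Stat5a*, *Stat6*, *Socs1* and *Cish* and had the highest neutrophil (181.29 TPM), T and NK cell (22.1 TPM) and erythroid (4820 TPM) sums of its group. *Clcf1* and *Lif* ran lowest in heart 4 of day 1 AMI, at 5.71 and 1.10 CPM beside 15.1 to 19.2 and 2.62 to 4.68 CPM in the other 3 hearts, and this heart was also the lowest of its group for *Socs1*, *Socs2*, *Socs3* and *Cish*.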
